A study of Mus musculus with 6 samples.

Results

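Interferon-induced genes are the genes that cells switch on when interferon, the cytokine of antiviral defence, binds its receptors. The set described here holds 39 of them, chosen by gene name: the interferon-inducible GTPases, the Stat and Irf regulators that drive the response, the RNA sensors, and the antiviral effectors. The count table of 20173 genes held 37 of the 39, and 29 of these were measured deeply enough to be tested. Mx1 and Mx2 were not analysed here. The question was whether Igtp, an interferon-inducible GTPase, fell alone or together with the rest of the set when Slit2, a secreted axon guidance ligand, was deleted.

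RNA was sequenced from sympathetic ganglion neurons of 3 control libraries, labelled SLIT2f/f, and 3 libraries labelled SLIT2-knockout, named Slit2fl/fl and Slit2th below. By the methods of the study, both groups carried the floxed Slit2 alleles and came from 3-week-old male mice, and the cells of the sympathetic chains were cultured for 4 to 5 days. In Slit2th, Cre recombinase driven by the Th promoter deleted Slit2, so deletion was limited to cells in which that promoter had been active, and no interferon or infection was part of the design. Nothing in the sources used here says how many mice stand behind a library, so p-values measure the spread between these libraries, which may in part be technical.

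Type I interferons signal through Jak1 and Tyk2 to a complex that holds Stat2 and Irf9, whereas interferon gamma signals through Jak1 and Jak2. The type I complex binds elements with repeated GAAA, and the response to interferon gamma acts through a palindrome known as a GAS element, near the start of the induced genes. A low level of many interferon-induced genes is kept up in cells that have met no virus.

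The total counts ranged from 1255939 to 3155406 per library, so that 3 counts, taken as the floor of detection, stood for 0.961 to 2.65 CPM (counts scaled to 1000000 per library), a limit that covers counting error only. Slit2 itself was lower in Slit2th, at 44.5, 55.1 and 43.8 CPM in the control libraries against 15.0, 11.5 and 15.2 CPM (log2 fold change -1.78, SE 0.37, unadjusted p = 0.000933, adjusted p = 0.422). Replicate 1 of each group stood apart, with correlations of 0.842 to 0.869 to its own group, against 0.938 and 0.965 between replicates 2 and 3. Of the 12152 genes tested with edgeR's quasi-likelihood test, 0 passed the adjusted threshold of 0.05 and 1309 had an unadjusted p under 0.05, while DESeq2 called 34 genes and limma-voom 0. Th, which marks sympathetic neurons, had 0 counts in every library, and the labelled cell type therefore lacked a defining marker.

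Several promoters of the set carry the response elements in their RefSeq sequence. The 120 bases before the start of 4 members are given (GRCm38.p6, 5′ to 3′ on the strand of the gene), because Igtp and Irgm2 carry the same pair of elements, Gbp7 holds both kinds and Isg15 the first kind alone. Capitals mark a match to GAAANNGAA (the interferon regulatory factor motif) or TTCNNNGAA (the GAS motif), searched on both strands, and neighbouring matches run together where they overlap, as in Isg15.

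Igtp (chr11:58199436-58199555, plus strand): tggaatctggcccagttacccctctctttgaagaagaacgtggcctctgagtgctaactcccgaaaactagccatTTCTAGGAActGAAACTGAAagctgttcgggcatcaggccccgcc
Irgm2 (chr11:58214857-58214976, plus strand): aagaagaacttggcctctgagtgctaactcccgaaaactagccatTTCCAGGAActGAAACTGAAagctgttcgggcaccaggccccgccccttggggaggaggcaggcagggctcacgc
Gbp7 (chr3:142530216-142530335, plus strand): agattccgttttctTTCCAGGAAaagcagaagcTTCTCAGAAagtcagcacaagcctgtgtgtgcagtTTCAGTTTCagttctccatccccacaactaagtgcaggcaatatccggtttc
Isg15 (chr4:156200819-156200938, minus strand): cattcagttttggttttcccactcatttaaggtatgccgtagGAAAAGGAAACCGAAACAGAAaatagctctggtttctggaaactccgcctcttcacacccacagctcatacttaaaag

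The RefSeq promoter table held 29 of the 39 members, and within 250 bases before the start 16 of them (55.2%) had the GAAANNGAA motif and 10 (34.5%) had the GAS motif. Among all 27025 genes of the table the shares were 8.18% and 8.13%. In Igtp the interferon regulatory factor motif began 34 bases before the start and the GAS motif 45 bases before it. In Irgm2 the same pair lay at 64 and 75 bases, again 11 bases apart. With the pair lined up, the longest identical run that touched these motifs was 38 bases. The longest run that the promoters shared, of 55 bases, began 181 bases before the start of Igtp and 215 before that of Irgm2, and it held neither motif. These matches are letters in a window and do not show that a factor was bound there.

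Igtp, a GTPase of the endoplasmic reticulum in the immunity-related GTPase (IRG) family, was 21.7-fold lower in Slit2th, while the other members lay on both sides of 0. Among the 29 tested members, 17 had a negative and 12 a positive log2 fold change, with a median of -0.16, which was the same without Igtp and stood beside a median of -0.05 over all tested genes. Of the members, 5 had an unadjusted p under 0.05 (17.2%), against 10.8% of all tested genes. Igtp and Trim25 were the 2 lower ones (6.9% of the members, against 6.78% of all tested genes), and Gbp5, Stat2 and Ifit2 were the 3 higher ones (10.3%, against 3.99%). No member passed the adjusted threshold, which 0% of all tested genes did, and the members' adjusted p-values ran from 0.422 to 0.992. Members with groups that did not overlap were Igtp, Trim25, Oasl2 and Parp14 on the lower side, 4 of 29 where 9.72% of all tested genes did so, and Gbp5 and Stat2 on the higher side, 2 of 29 where the share of all tested genes was 8.74%. The share of members lower at an unadjusted p was thus near that of all genes, and the members were chosen with results of these counts known, so none of these shares is a test of the set. Without replicate 1 of both groups, 27 members were tested and 14 of them were negative. In that analysis 5 members had an unadjusted p under 0.05, namely Igtp, Stat2, Ifit2, Oasl2 and Ifitm3. Of all 11473 genes tested there, 1999 had one.

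**Figure D1:**
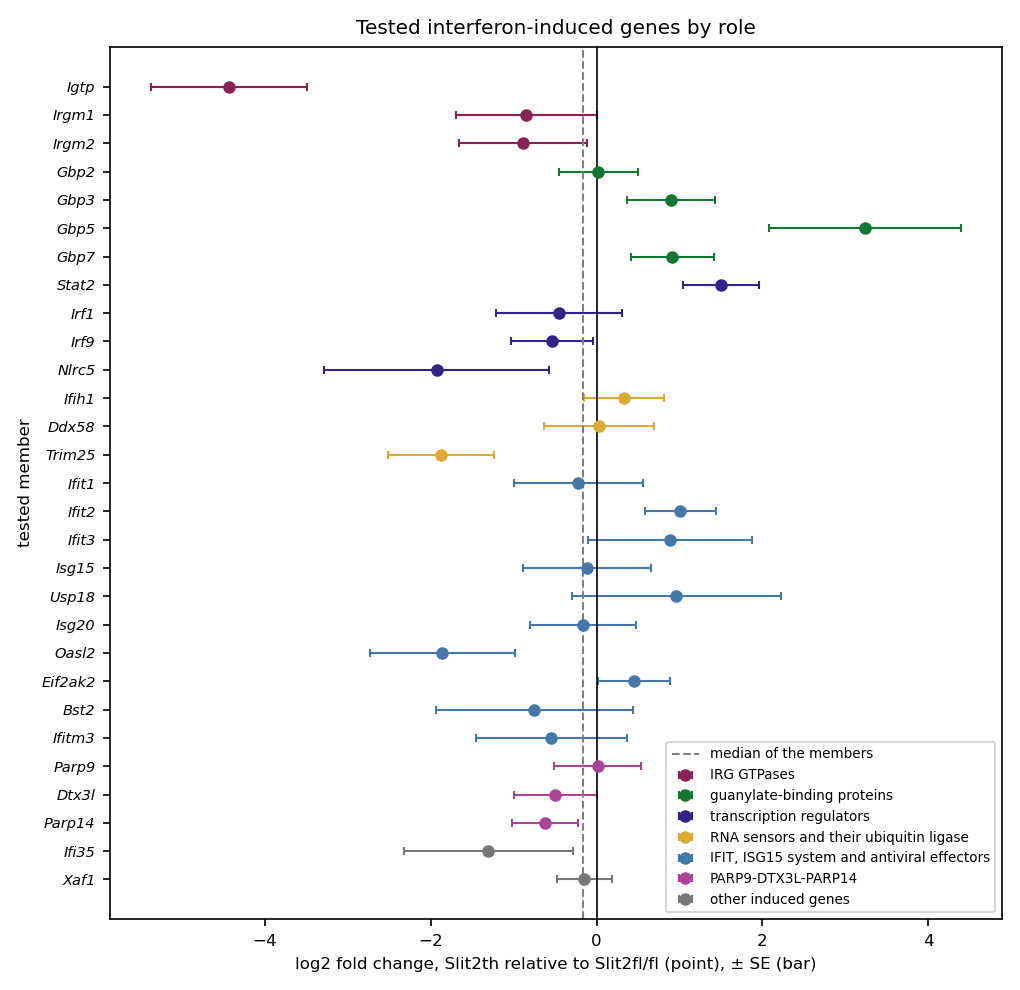
Log2 fold change of each of the 29 tested members in Slit2th relative to Slit2fl/fl (points, coloured by role) with its standard error (bars) from edgeR's quasi-likelihood fit over 3 libraries a group. Igtp lies at -4.44, the lowest of the members, while the dashed line marks their median of -0.16.

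The IRG family holds GTPases that act on the vacuoles of intracellular pathogens, and Igtp, Irgm1 and Irgm2 are its regulatory branch. Igtp had 427, 25 and 46 counts in Slit2fl/fl replicates 1, 2 and 3, and 1, 5 and 8 counts in Slit2th replicates 1, 2 and 3. These were 137, 16.2 and 26.2 CPM against 0.883, 2.39 and 4.52 CPM. All 3 Slit2th libraries were below the lowest Slit2fl/fl library, Slit2fl/fl 1 was far above the other two, and Slit2th 1 was under the floor of 3 counts. The log2 fold change was -4.44 (SE 0.94, unadjusted p = 0.00102, adjusted p = 0.422 by edgeR's quasi-likelihood test), and the two-sided exact permutation test of log2(CPM + 1) gave p = 0.10, the smallest that 3 libraries against 3 allow. By its unadjusted p, Igtp ranked 19 of the 12152 tested genes, and by its log2 fold change it was the 14th lowest.

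The size of the Igtp difference rested in part on Slit2fl/fl 1, and its log2 fold change was -2.93 (unadjusted p = 0.00172) without that library and -2.64 without replicate 1 of both groups. Its adjusted p passed the threshold with DESeq2 (0.000646), without the filter on low counts (0.0256) and without replicate 1 of both groups (0.0172). Over all genes, 34 of 12152, 7 of 17358 and 377 of 11473 passed it in these 3 analyses, so passing was far more common in the last. Igtp had an unadjusted p under 0.05 in all 14 alternative analyses in which it was tested. These analyses refit the same libraries, and Igtp was singled out with earlier results of these counts known. Its p-values, its rank and their persistence are therefore a description and not independent evidence.

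Irgm1, needed for the survival of mice under intracellular infection, had 24, 8 and 1 counts in Slit2fl/fl against 2, 7 and 4 counts in Slit2th. Its groups overlapped, with 7.69, 5.19 and 0.569 CPM against 1.77, 3.34 and 2.26 CPM (log2 fold change -0.85, SE 0.85, unadjusted p = 0.34). Irgm2 had 6, 5 and 10 counts in Slit2fl/fl against 3, 2 and 4 counts in Slit2th. Its 1.92, 3.24 and 5.69 CPM overlapped with 2.65, 0.954 and 2.26 CPM (log2 fold change -0.89, SE 0.77, unadjusted p = 0.276). Both values were negative, as was that of Igtp, but neither passed the test, and without replicate 1 of both groups that of Irgm1 came to 0.00. Leaving out single libraries moved Irgm1 between -1.43 (without Slit2fl/fl 3) and -0.15 (without Slit2fl/fl 1), and Irgm2 between -1.24 (without Slit2fl/fl 1) and -0.46 (without Slit2fl/fl 3). The effector GTPase Iigp1 had 1 count in all libraries together and was not tested.

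Igtp lies on chromosome 11 at 58199556 to 58207591 on the plus strand of GRCm38, and the GENCODE release M21 model of Irgm2 (58199618 to 58222782, same strand) includes exons that overlap those of Igtp. Of the 50-base stretches of Igtp's exons, 11.8% also occur in another gene, namely Irgm2. The rule by which reads in shared exons were counted is not given in the sources used here, so the split of reads between Igtp and Irgm2 is uncertain. Among the 18 other genes of the table that start within 500 kb of Igtp, 9 were tested, and their log2 fold changes ran from -2.09 to 0.46. The lowest was that of Mrpl22, which encodes a mitochondrial ribosomal protein and starts 27.9 kb before Igtp, with 21.8, 5.83 and 13.1 CPM against 2.65, 2.86 and 3.95 CPM (SE 0.61, unadjusted p = 0.00751). Its groups did not overlap either, which held on the lower side for 9.72% of all tested genes. It was the only one of the 9 with an unadjusted p under 0.05, where 10.8% of all tested genes had one. Mrpl22 was named after its value was seen.

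**Figure D2:**
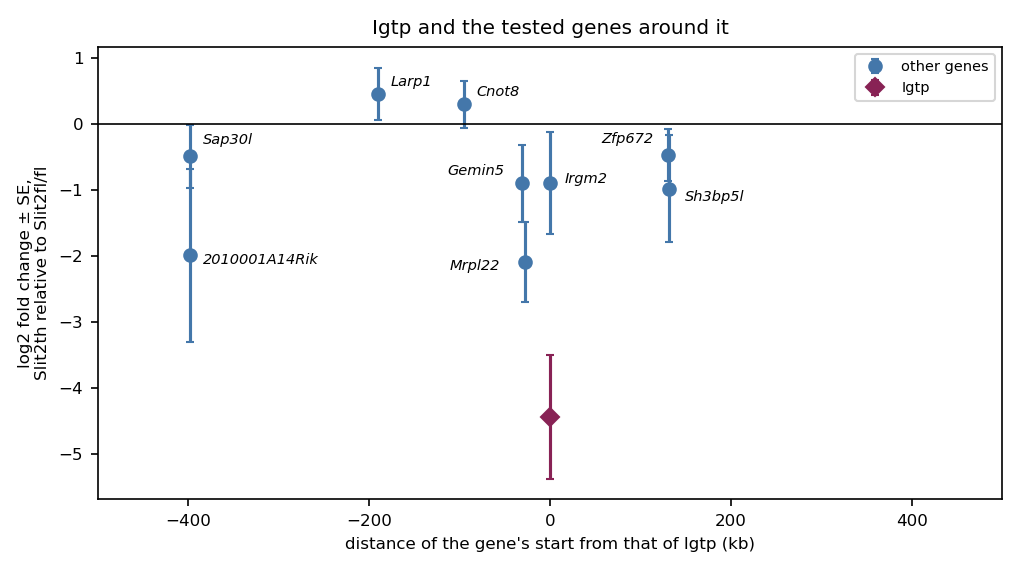
Log2 fold change with its standard error (bars) in Slit2th relative to Slit2fl/fl for Igtp (diamond) and the 9 tested genes that start within 500 kb of it (circles), by distance in kb between gene starts. Igtp lies below each of the 9, of which Mrpl22 at -2.09 is the lowest.

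The guanylate-binding proteins (GBPs) are larger interferon-induced GTPases that coat and disrupt pathogen vacuoles. All 4 tested GBP members had a positive log2 fold change (median 0.90), and Gbp5 passed the unadjusted test, but Gbp2 was negative without Slit2fl/fl 1 (-0.34), without Slit2th 3 (-0.14) and without replicate 1 of both groups (-0.28). Gbp5, which takes part in the activation of inflammasomes, had 1, 3 and 0 counts in Slit2fl/fl against 18, 6 and 5 counts in Slit2th. The groups did not overlap, at 0.320, 1.94 and 0 CPM against 15.9, 2.86 and 2.82 CPM, but the Slit2fl/fl libraries were at or under the floor of detection. The log2 fold change was 3.24 (SE 1.16, unadjusted p = 0.0205), and it was 2.0 without Slit2th 1, the library that stood highest, with an unadjusted p no longer under 0.05. Without Slit2fl/fl 1 or Slit2fl/fl 3 it was 2.77 and 2.73 and did not pass either, and without Slit2fl/fl 2 it rose to 4.73.

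Gbp2 had the highest level of the GBPs, at 11.9, 34.4 and 34.7 CPM in Slit2fl/fl against 23.8, 24.3 and 33.3 CPM (log2 fold change 0.02, SE 0.48). Its means of 27.0 ± 13.1 and 27.2 ± 5.33 CPM (SD, n = 3 each) lay close together. Gbp3 and Gbp7 had log2 fold changes of 0.90 (SE 0.53) and 0.91 (SE 0.50), with unadjusted p-values of 0.126 and 0.103. Gbp6, with 70.7% of its 50-base stretches shared with other genes, had 4 counts in all and was not tested. No contrast between the GBPs and the IRG GTPases was tested.

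Macrophages express GBPs, and markers of macrophages moved with the groups. The summed level of 15 macrophage markers ran from 37.0 to 128 CPM in Slit2fl/fl against 131 to 672 CPM in Slit2th, highest in Slit2th 1, the library with the most Gbp5. Lyz2, Aif1 and C1qa made up much of that sum, at 285, 182 and 74.1 CPM in Slit2th 1. That library held 206 of the 209 counts of Aif1 and 84 of the 100 of C1qa. Cd68, C1qb, Tyrobp and Fcer1g were also higher there than in Slit2th 2 and 3, but the other markers were not. Of the 15 markers, 14 had a higher mean in Slit2th, and none was at 0 in every library. Of the 12 tested, 6 had an unadjusted p under 0.05, all higher, against 3.99% of all tested genes. Among these 6, Mrc1, Ptprc and Itgam had only 15, 14 and 15 counts over all libraries. Among other cell types, 12 glia markers summed to 6040 to 11960 CPM in Slit2fl/fl against 13553 to 20244 CPM in Slit2th, although 7 of the 11 tested had a negative log2 fold change, and all 10 tested fibroblast markers had a positive one. The part of these cell types in the values of the GBPs was not tested, and in bulk samples a change in the number of cells of a type and in the RNA per cell cannot be told apart. Markers of lymphoid and plasmacytoid dendritic cells summed to at most 9.71 CPM in any library, and Cd4 and Klrb1c were at 0 throughout. The 8 proliferation markers summed to 288 to 359 CPM in Slit2fl/fl against 120 to 222 CPM in Slit2th, and the 13 sympathetic neuron markers in the table to 359, 167 and 146 CPM against 123, 176 and 160 CPM, highest in Slit2fl/fl 1, as Igtp and Trim25 were. Of the 5 tested neuron markers 4 were negative and 0 passed the unadjusted test. The 8 endothelial markers summed to 18.8 to 32.3 CPM against 15.0 to 19.6 CPM, with 2 of the 4 tested negative and Emcn at -2.15 (SE 0.84, unadjusted p = 0.0303). The part of these markers in the lower values of Igtp and Trim25 was not tested.

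**Figure D3:**
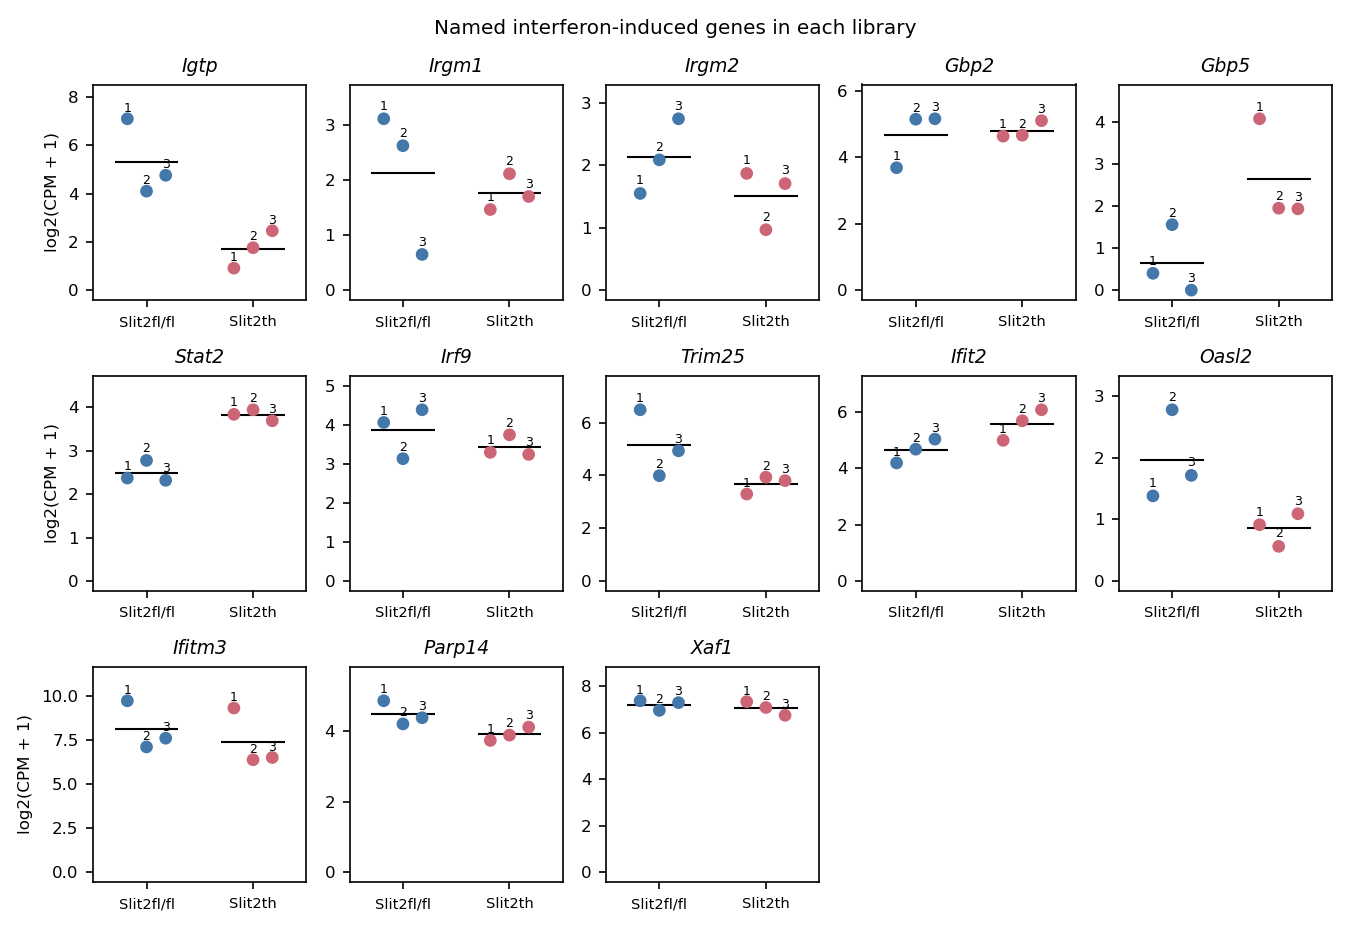
log2(CPM + 1) of the 13 members given library by library in the text, in Slit2fl/fl (blue) and Slit2th (red), where the digit above a point is the replicate, the line is the group mean, and each panel has its own vertical scale. Igtp, Trim25, Oasl2 and Parp14 were lower in all 3 Slit2th libraries than in any Slit2fl/fl library, and Gbp5 and Stat2 were higher.

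Among the transcription regulators, Stat2 rose at an unadjusted p while its partner Irf9 did not pass. Stat2, which joins Irf9 in the complex activated by type I interferon, had 13, 9 and 7 counts in Slit2fl/fl against 15, 30 and 21 counts in Slit2th. Scaled to depth, these were 4.16, 5.83 and 3.98 CPM against 13.2, 14.3 and 11.9 CPM. The groups did not overlap and the libraries within each lay close together, at 4.66 ± 1.02 and 13.1 ± 1.23 CPM (SD, n = 3 each). The log2 fold change was 1.50 (SE 0.46, 2.82-fold, unadjusted p = 0.0101, adjusted p = 0.422), and Stat2 kept an unadjusted p under 0.05 in all 15 alternative analyses, with values from 1.34 to 1.73.

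Irf9, the DNA-binding part of the same complex, had 15.7, 7.78 and 19.9 CPM in the control libraries against 8.83, 12.4 and 8.47 CPM. It overlapped between groups, at a log2 fold change of -0.54 (SE 0.49, unadjusted p = 0.298). Irf1, a regulator induced by interferon gamma, had a log2 fold change of -0.45 (SE 0.76). Nlrc5, the transactivator of MHC class I genes, had 7, 4 and 0 counts in Slit2fl/fl against 0, 2 and 0, too few to place its log2 fold change of -1.93 (SE 1.36). Irf7, which drives the production of interferon itself, had 5, 0 and 1 counts in Slit2fl/fl, 0 in each Slit2th library, and was not tested.

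Of the RNA sensors and the ubiquitin ligase that activates one of them, the ligase alone had an unadjusted p under 0.05. Trim25, which ubiquitinates the sensor encoded by Ddx58, had 277, 23 and 52 counts in Slit2fl/fl against 10, 30 and 23 counts in Slit2th. This was 88.7, 14.9 and 29.6 CPM against 8.83, 14.3 and 13.0 CPM. Slit2fl/fl 1 stood far above the rest, and the highest Slit2th library lay just under the lowest Slit2fl/fl library. The log2 fold change was -1.88 (SE 0.64, 3.67-fold, unadjusted p = 0.0168), and without Slit2fl/fl 1 it was -0.87 and no longer had an unadjusted p under 0.05. Ifih1 (MDA5) and Ddx58 (RIG-I), the sensors of long and of end-marked viral RNA, had log2 fold changes of 0.33 (SE 0.48) and 0.03 (SE 0.66). Ddx58 ranged from 5.30 to 24.3 CPM within Slit2th alone. Dhx58 had 5 counts in all and was not tested.

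The antiviral effectors were split, with 6 negative and 4 positive log2 fold changes among the 10 tested and a median of -0.14. Ifit2, a protein that binds viral RNA and limits its translation, had 54, 38 and 56 counts in Slit2fl/fl against 35, 106 and 118 counts in Slit2th. As CPM it stood at 17.3, 24.6 and 31.8 against 30.9, 50.6 and 66.6. Slit2th 2 and Slit2th 3 were above every Slit2fl/fl library, while Slit2th 1 was just under Slit2fl/fl 3. The log2 fold change was 1.01 (SE 0.43, 2.02-fold, unadjusted p = 0.0424), and it kept an unadjusted p under 0.05 in 2 of the 6 analyses that left out a library, those without Slit2fl/fl 3 and without Slit2th 1. Its lowest value among those 6 was 0.75, without Slit2th 3.

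Neither of the other tested IFIT genes, which stand next to Ifit2 on chromosome 19, passed the test. Ifit1 had a log2 fold change of -0.22 (SE 0.78) and Ifit3 one of 0.88 (SE 0.99), and Ifit3 had 24 of its 57 counts in Slit2th 1. Ifit3 shares 51.2% of its 50-base stretches with Ifit3b, so its counts are uncertain. Oasl2, a relative of the enzymes that detect double-stranded RNA, had 5, 9 and 4 counts in Slit2fl/fl against 1, 1 and 2 counts in Slit2th. The groups did not overlap, at 1.60, 5.83 and 2.27 CPM against 0.883, 0.477 and 1.13 CPM, but all 3 Slit2th libraries were under the floor of 3 counts (log2 fold change -1.86, SE 0.88, unadjusted p = 0.0644). Without Slit2fl/fl 2, its highest library, the log2 fold change was -1.16. Oas1a, an enzyme of that family, had 0 counts in every library, which allows a level of up to 2.65 CPM in the shallowest library.

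Ifitm3, a membrane protein that blocks the entry of viruses, had by far the highest level of the set, at 851, 137 and 194 CPM in Slit2fl/fl against 640, 82.5 and 90.3 CPM. Replicate 1 was the highest library in both groups, and the groups overlapped (log2 fold change -0.55, SE 0.91, unadjusted p = 0.561). The value depended on that replicate, being 0.73 without Slit2fl/fl 1, -2.19 without Slit2th 1 and -0.96 without both, where its adjusted p was 0.0349. Without both, 377 of all 11473 tested genes passed the adjusted threshold. Isg15, the ubiquitin-like protein of the response, had a log2 fold change of -0.12 (SE 0.77), and Usp18, the protease that removes it, one of 0.96 (SE 1.26) on 16 counts in all. The kinase Eif2ak2 (PKR) stood at 0.45 (SE 0.43), the nuclease Isg20 at -0.16 (SE 0.64) and Bst2, which tethers budding virus, at -0.75 (SE 1.19). Rsad2 (viperin) had 5 counts in all and was not tested.

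Parp9, Dtx3l and Parp14 lie together on chromosome 16, and the first 2 encode partners in a single ADP-ribosyltransferase and ubiquitin ligase complex. Parp14 had 28.2, 17.5 and 19.9 CPM in Slit2fl/fl against 12.4, 13.8 and 16.4 CPM. Its groups did not overlap, but the gap between 16.4 and 17.5 CPM was small, and the log2 fold change of -0.62 (SE 0.40) had an unadjusted p of 0.156 and was -0.39 without Slit2fl/fl 1. Dtx3l stood at -0.50 (SE 0.50) and Parp9 at 0.01 (SE 0.52). Their exons overlap on opposite strands over part of their length. The strand setting of the counting is not given in the sources used here, so the split of reads in that overlap is uncertain.

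Xaf1, a proapoptotic partner of the inhibitor XIAP, was among the most abundant members and had the smallest standard error of the set, with 166, 124 and 157 CPM in Slit2fl/fl against 162, 136 and 107 CPM (log2 fold change -0.15, SE 0.33). Ifi35 had 117 of its 153 counts in Slit2fl/fl 1 and a log2 fold change of -1.31 (SE 1.02). Ifi44 had 13 counts in all and Rtp4, a receptor chaperone, had 5, and neither was tested. Over the 24 tested members with an unadjusted p of 0.05 or more, the log2 fold changes ran from -1.93 to 0.96 with standard errors of 0.33 to 1.36, so that for those with the larger errors a 2-fold difference was not detectable at this depth and spread.

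Compared per kb of exon, the levels of the members covered a wide range, and 4 of the 37 were above 10 CPM per kb over all libraries. Ifitm3 came first with 582 ± 585 CPM per kb in Slit2fl/fl against 400 ± 471 (SD, n = 3 each). Xaf1 had 31.8 ± 4.65 and 28.7 ± 5.79 CPM per kb. In Slit2fl/fl, Igtp was next with 29.5 ± 33.1 CPM per kb, a level that did not differ from that of Xaf1 beyond its spread. That mean rested on Slit2fl/fl 1, with 137 CPM against 16.2 and 26.2 CPM in Slit2fl/fl 2 and 3. The place of Igtp above Gbp2 in Slit2fl/fl depended on that library. In Slit2th, Igtp had 1.28 ± 0.903 CPM per kb. Gbp2 followed at 10.7 ± 5.20 and 10.8 ± 2.12 CPM per kb. Averaged over all 6 libraries, Ifit2 came after these with 9.41 CPM per kb, from 6.26 ± 1.85 in Slit2fl/fl and 12.6 ± 4.56 in Slit2th. Irgm1 and Irgm2 stayed under 1 CPM per kb in both groups.

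**Figure D4:**
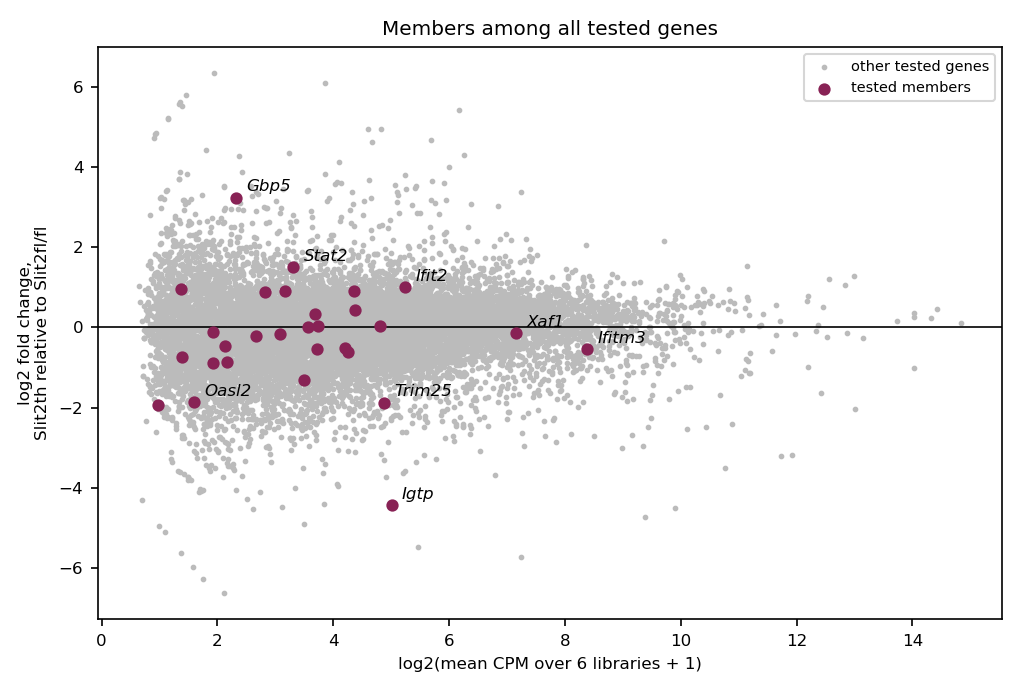
Log2 fold change in Slit2th relative to Slit2fl/fl against log2(mean CPM over the 6 libraries + 1) for all 12152 tested genes, with the 29 tested members as large dark points. Apart from Igtp at -4.44 and Gbp5 at 3.24, the members lie within -1.93 and 1.50.

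Each member was also set against its own mean over the libraries, as a description. On the log2(CPM + 1) scale, Igtp deviated in Slit2fl/fl 1, 2 and 3 by 3.59, 0.59 and 1.24, and by -2.61, -1.76 and -1.05 in Slit2th 1, 2 and 3. The median deviation of the other 28 tested members across the Slit2fl/fl libraries was -0.01, 0.02 and -0.19, and across the Slit2th libraries it was -0.11, 0.03 and -0.18. A median over members that go both ways stays near 0, and single members moved too, with deviations of 2.42 for Gbp5 and 2.13 for Ifit3 in Slit2th 1, and of 2.42 for Ifi35 and 2.08 for Trim25 in Slit2fl/fl 1. Slit2fl/fl 1 was the library in which the most members had their highest level, 9 of 29, Igtp, Trim25, Ifitm3 and Ifi35 among them.

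**Figure D5:**
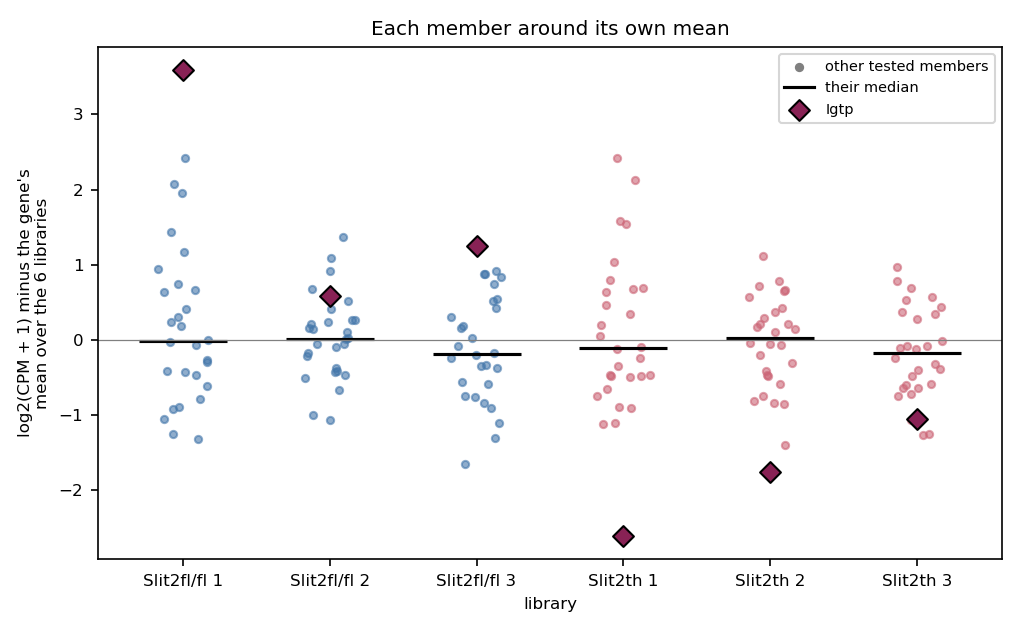
Deviation of each tested member from its own mean over the 6 libraries, on the log2(CPM + 1) scale, for Igtp (diamonds) and the other 28 tested members (circles, spread sideways at random, with their median as a black line). Igtp runs from 3.59 in Slit2fl/fl 1 to -2.61 in Slit2th 1, and single other members reach 2.42, while the median of the others, which go both ways, lies between -0.19 and 0.03.

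Members with and without the response motifs had log2 fold changes of both signs. The 14 tested members with the GAAANNGAA motif had 7 negative and 7 positive log2 fold changes (median -0.05), and the 11 without it had 8 negative and 3 positive (median -0.45). For the GAS motif the counts were 5 negative and 4 positive with it (median -0.16), and 10 and 6 without it (median -0.18). Irgm2, whose promoter holds the same pair of motifs as that of Igtp, had a log2 fold change of -0.89 beside the -4.44 of Igtp, and the difference between these was not tested.

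Most of the receptors, kinases, regulators and sensors upstream of the set were detected, and most of those tested did not pass the test. Of 10 interferon genes listed, Ifnz alone was in the table and had 0 counts, and the others were not analysed here. Of the 9 receptor and kinase genes, 8 were tested and 0 had an unadjusted p under 0.05. The receptor chains Ifnar1 and Ifnar2 for type I interferon had log2 fold changes of 1.14 (SE 0.82) and 0.61 (SE 0.41), and Ifngr1 and Ifngr2 for interferon gamma had -0.68 (SE 0.42) and -0.25 (SE 0.44). Ifngr1 did not overlap between the groups, with 35.9, 33.1 and 40.4 CPM against 12.4, 25.8 and 29.4 CPM (unadjusted p = 0.138).

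Among the 66 tested genes of the pathway and of a further list of interferon-induced genes, 6 had an unadjusted p under 0.05 (9.09%, against 10.8% of all tested genes), 3 in each direction. Irf3, which turns on interferon genes after sensing, was lower, at 42.6, 16.2 and 14.2 CPM against 12.4, 10.97 and 5.08 CPM (log2 fold change -1.38, SE 0.58, unadjusted p = 0.0397). The corepressors Irf2bp1 and Irf2bp2 lay on opposite sides, at -0.99 (SE 0.44) and 1.11 (SE 0.40). Tapbp, which loads peptides on MHC class I, was lower, at 136, 41.5 and 46.1 CPM against 15.9, 23.9 and 17.5 CPM (log2 fold change -1.96, SE 0.53, unadjusted p = 0.0049). Lgals9, a galectin, was higher at 1.11 (SE 0.47). Samhd1, an enzyme that lowers the pool of nucleotides a virus can use, had a log2 fold change of 4.67 (SE 1.58) that came from 319 of its 362 counts in Slit2th 1, and its groups overlapped. Ifi47, the only other tested IRG or GBP gene of these lists, had 1.49 (SE 1.13) on 17 counts, and its unadjusted p was 0.219.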

How the data were processed

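RNA-Seq of 6 libraries, 3 Slit2fl/fl and 3 Slit2th, was used. Per the paper's methods, the authors prepared TruSeq libraries and aligned reads to mm10 with HISAT2. The deposited values are whole-number counts per gene that sum to different totals, so they were taken as not normalized; the submitters' processing notes name GRCm39, and the counting program, strand setting and annotation are not given in the sources used here. Groups came from the genotype labels. The paper also calls the material sympathetic nerve ganglions, and its isolation text names dorsal root neurons.

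Genes with at least 1 CPM in at least 3 libraries were kept, scaled by TMM and tested with edgeR 4.0.16 (R 4.3.3) (quasi-likelihood, no covariates); p-values were adjusted by Benjamini-Hochberg over all 12152 genes, with a threshold of 0.05. CPM are per TMM-scaled library. The fit was checked on simulated counts. Alternatives used DESeq2 1.42.0, limma 3.58.1, other scalings and filters, the replicate number as a block and left-out libraries; offsets corrected for GC content were added after seeing the data.

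The members and lists were chosen with earlier results of these data known. By rule, library values are given for members with an unadjusted p under 0.05 or groups that do not overlap, for Igtp, Irgm1 and Irgm2, and for the most abundant member of each role; of other lists, at most 6 genes with an unadjusted p under 0.05 and the receptors are named, and 1 gene that the rule names is not reported here. Positions and exon lengths came from GENCODE release M21 (GRCm38, which held 20159 of the 20173 identifiers), and promoters from RefSeq.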

Additional observations from a re-analysis of the deposited data

How the results depend on the processing

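Igtp was lower in Slit2th in all 14 alternatives that tested it, from -5.03 to -2.64 on the log2 scale; it could not be tested where all 6 libraries had to reach 1 CPM. It passed the adjusted threshold with DESeq2 (-4.47, adjusted p 0.000646), without the filter (-4.45, 0.0256) and without replicate 1 of both groups (-2.64, 0.0172). The number of members past that threshold was thus 1, 1 and 2 there, Ifitm3 (-0.96) being the other. Over all tested genes the number was 34, 7 and 377, and the cause was not tested. Leaving out single libraries gave Igtp -5.03 to -2.93, 3 to 5 members past the unadjusted p, 0 past the adjusted threshold, 2 to 7 pathway and other induced genes past the unadjusted p, and a member median of -0.39 to -0.01. Over all tested genes, 823 to 1649 passed the unadjusted p in those analyses. The filter in all 6 libraries left 21 members, of which 3 passed the unadjusted p, beside 1098 of all 9674 genes. GC-corrected offsets gave a member median of -0.06. Without single libraries Gbp2 ran from -0.34 to 0.25, Ifitm3 from -2.19 to 0.73 and Xaf1 from -0.29 to 0.00. Among the 13 members given by library, signs turned for Gbp2 without Slit2fl/fl replicate 1 (-0.34), without Slit2th replicate 3 (-0.14) and without replicate 1 of both groups (-0.28), for Ifitm3 without Slit2fl/fl replicate 1 (0.73), for Irgm1 without replicate 1 of both groups (0.00) and for Xaf1 without Slit2th replicate 3 (0.00). Over all tested members, DESeq2 size factors and library totals turned no sign, while the sign was kept by 20 of 28 without Slit2fl/fl replicate 1, 21 of 27 without replicate 1 of both groups, 25 of 29 with GC-corrected offsets, 26 of 29 with limma-voom and 27 of 29 with the replicate block.

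The replicate numbers were not taken as pairs: same-numbered libraries deviated together with correlations of 0.292, 0.244 and 0.0808, and Slit2fl/fl 2 correlated best with Slit2th 3 (0.255). With the replicate number as a block, 6 members passed the unadjusted p and 0 the adjusted one, 7 pathway and other induced genes passed the unadjusted p, Igtp stood at -3.76 (adjusted p 0.189) and the member median at -0.16. Of all 12152 tested genes, 1614 passed the unadjusted p with that block.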
